A study of Mus musculus with 47 samples.

Results

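Medullary thymic epithelial cells (mTECs) of adult WT mice were compared between the mTEChi and the mTEClo fraction across all genes. The samples were chosen by their titles, mTEChi, WT (n = 7) and mTEClo, WT (n = 8), which together are 15 of the 47 samples of the series and 15 of its 23 adult samples. All 15 came from C57BL/6 mice with no deletion and no treatment. The cells were sorted from thymus as DAPI-, CD45-, EpCAM+ and Ly51- cells and divided by surface MHC class II, high for mTEChi and low for mTEClo, and their RNA was made into full-length libraries of the RamDA type. The mTEChi mice were aged 4 weeks (replicates 1 and 2) or 5 weeks (replicates 3 to 7), and replicates 4 and 5 were labelled female and the others male. The mTEClo mice were aged 4 weeks (replicates 1 to 5) or 5 weeks (replicates 6 to 8), and replicates 1, 2, 5, 7 and 8 were labelled female and the others male. Adult AireKO libraries, mTEChi (n = 4) and mTEClo (n = 4), all from males aged 5 or 6 weeks, entered the same fit and are described only where the WT difference is set beside the difference without Aire. Each fraction is a sorted mixture of cell types, so that fewer cells of a type and less RNA per cell cannot be told apart in any value that follows.

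mTECs teach developing T cells what belongs to the body. Immature mTECs have little MHC class II, and signals through the receptors RANK, CD40 and the lymphotoxin β receptor turn them into mature cells with much class II and costimulatory ligands, many of which express Aire. Aire lets them transcribe genes that otherwise belong to other tissues, so that T cells that react with those proteins are removed or diverted. The mTEClo fraction is a mixed one, in which precursors lie beside cells that have passed through the Aire stage, among them mimetic cells that take on features of tuft, muscle, endocrine, ciliated and other peripheral cells.

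Total counts ran from 1602125 to 3231079 in mTEChi and from 1628778 to 3883437 in mTEClo, and replicates 1 and 2 of each fraction had the lowest totals (1602125 to 1804090). A count of 0 can hide up to 3 counts in a library, a limit that covers counting error only because reads are not independent molecules. On the first principal component of log2 CPM, which held 81% of the variance, mTEChi libraries lay between 98.7 and 106.9 and mTEClo libraries between -96.2 and -77.7. The second component held 3.29% of the variance. On it mTEChi replicates 1 and 2, the 4-week libraries, lay at 39.4 and 38.3. The 5-week mTEChi libraries lay between -20.2 and -8.22. The mTEClo libraries of 4 weeks lay between 2.69 and 13.5, and those of 5 weeks between -19.65 and -12.8. mTEClo replicates 1 and 2 went against their sex label. Both were labelled female, yet they had 15.5 and 10.8 CPM of Xist, the RNA that silences an X chromosome in females, against 1918 to 2015 CPM in the 3 other mTEClo libraries labelled female, and 95.4 and 94.8 CPM of the Y-linked Kdm5d. The other 13 libraries matched their labels. The labels do not say whether libraries came from separate mice, so p-values measure the spread between these libraries. Pairs of libraries of a fraction differed by more than sampling noise in all 49 cases, with a chi-square per degree of freedom from 1.23 (mTEChi replicates 1 and 2) to 4.59 (median 3.26). Of these pairs, 8 had a value under 2. In mTEChi they were replicates 1 and 2 (1.233), 3, 4 and 5 among themselves (1.412 to 1.925), and 6 and 7 (1.697). In mTEClo they were replicates 1 and 2 (1.417), 3 and 4 (1.595), and 7 and 8 (1.405). All other pairs had at least 2.18. Whether close libraries share a mouse or a preparation was not tested. If they do, there are fewer independent values than libraries, and the p-values are too small.

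The epithelial identity in the labels was checked with marker genes. Epcam, the surface protein used in the sort, had a lowest, median and highest level of 227, 238 and 324 CPM in mTEClo and 215, 219 and 308 CPM in mTEChi, so that the ranges overlapped. Krt8, a keratin of simple epithelia, had 152, 173 and 257 CPM in mTEClo and 182, 202 and 223 CPM in mTEChi. Psmb11 and Prss16, which mark cortical thymic epithelium, had medians of 3.16 and 39.0 CPM in mTEClo and 7.25 and 32.3 CPM in mTEChi. Other cortical genes moved more. By the calls of the next paragraph, 6 of 15 tested cortical genes (40.0%) were higher in mTEChi and 4 (26.7%) lower, against 23.7% and 12.4% of all genes. Of 13 tested genes of thymic epithelium, 4 (30.8%) were higher and 3 (23.1%) lower, with log2 fold changes from -1.352 to 2.245. Enpep, the gene of Ly51 that the sort excluded, averaged 5.70 CPM in mTEClo and 45.4 CPM in mTEChi, without overlap (log2 fold change 2.97, SE 0.19). Ptprc, the gene of CD45 that the sort excluded, had medians of 16.8 and 25.1 CPM, with overlapping ranges. CPM are counts scaled to a fixed library total with TMM factors, so that levels are compared here between libraries and not between genes of different length.

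Of 19310 genes tested, 6964 (36.1%) were called, at an adjusted p under 0.05 in edgeR's quasi-likelihood test and a change of at least 2-fold. In mTEChi 4573 genes (23.7%) were higher and 2391 (12.4%) lower, and the median over all tested genes was 0.00443 on the log2 fold change scale. Without the 2 mTEClo libraries that went against their sex label, 7064 genes were called, 4628 higher and 2436 lower. The rises were the larger changes. At least 8-fold higher were 1776 genes, 38.8% of those called higher, against 223 that were at least 8-fold lower, 9.33% of those called lower. The genes called higher had a median of 11.7 CPM in mTEChi and 1.87 CPM in mTEClo, and 1612 of them (35.3%) averaged under 1 CPM in mTEClo. Those called lower were more abundant, with medians of 26.2 CPM in mTEClo and 7.50 CPM in mTEChi, and 183 (7.65%) averaged under 1 CPM in mTEChi. All CPM of the 7 mTEChi libraries lay apart from all 8 mTEClo libraries for 83.8% of the genes called higher and 82.9% of those called lower. The balance moved with the level. Among genes averaging 1 to 10 CPM over both fractions 40.1% were higher and 13.3% lower, and among those at 100 CPM or more 9.31% were higher and 11.8% lower. The plot of fold change against level shows the rises spread over weakly expressed genes.

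**Figure D1:**
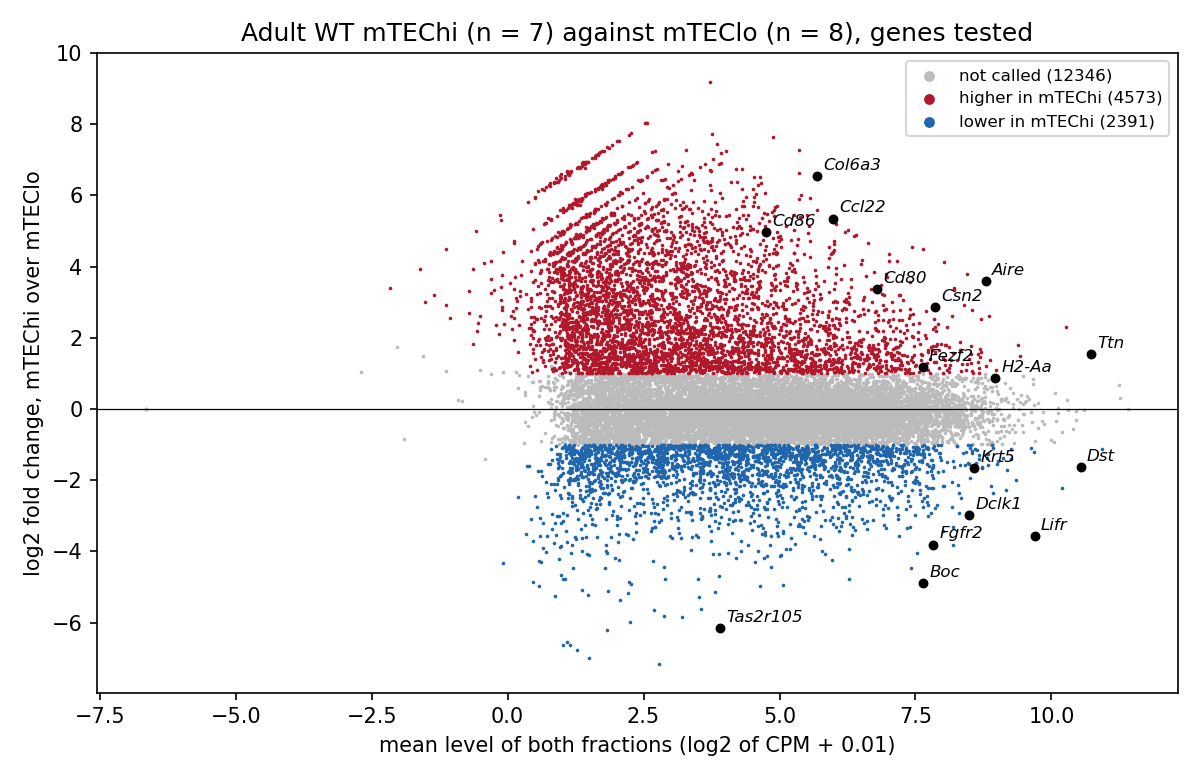
Fold change of each tested gene (log2, mTEChi over mTEClo) against its mean level in both fractions (log2 of CPM + 0.01), with 4573 genes called higher in red, 2391 called lower in blue and the others in grey. Red points reach farther from 0 than blue ones, mostly at low levels.

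More kinds of RNA were found in mTEChi. With every library reduced to 1602125 counts, the expected number of genes with a count was lowest 27864, median 28523 and highest 28748 in mTEChi and 23259, 23526 and 23951 in mTEClo. The mTEChi libraries all lay above the mTEClo libraries, by 4843 genes on average (28403 ± 371, SD, n = 7, against 23561 ± 221, n = 8, p = 0.000311, exact permutation test, 2-sided, the smallest p this design allows). Among protein-coding genes alone the difference was 2373 genes, from 15929 ± 126 to 18302 ± 130 (p = 0.000311, exact permutation test). With the mean of libraries of the same fraction, age and sex as 1 value, the difference was 4753 genes and p = 0.0571 (exact permutation test), which is then the smallest p that the design allows. The 100 genes with most counts in a library took 8.04% to 9.46% of its counts in mTEChi (median 8.25%) and 8.48% to 10.2% in mTEClo (median 8.90%), and the means differed by -0.516 percentage points (p = 0.145, exact permutation test). This call depended on the libraries and genes used, with p = 0.0357 over protein-coding genes, 0.0357 at 5 weeks and 0.00866 without the 4 shallowest libraries (exact permutation tests), and with the opposite sign, 0.1245, in males. At the extreme, 401 genes had a count in each mTEChi library and none in any mTEClo library, and 18 genes the reverse.

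**Figure D2:**
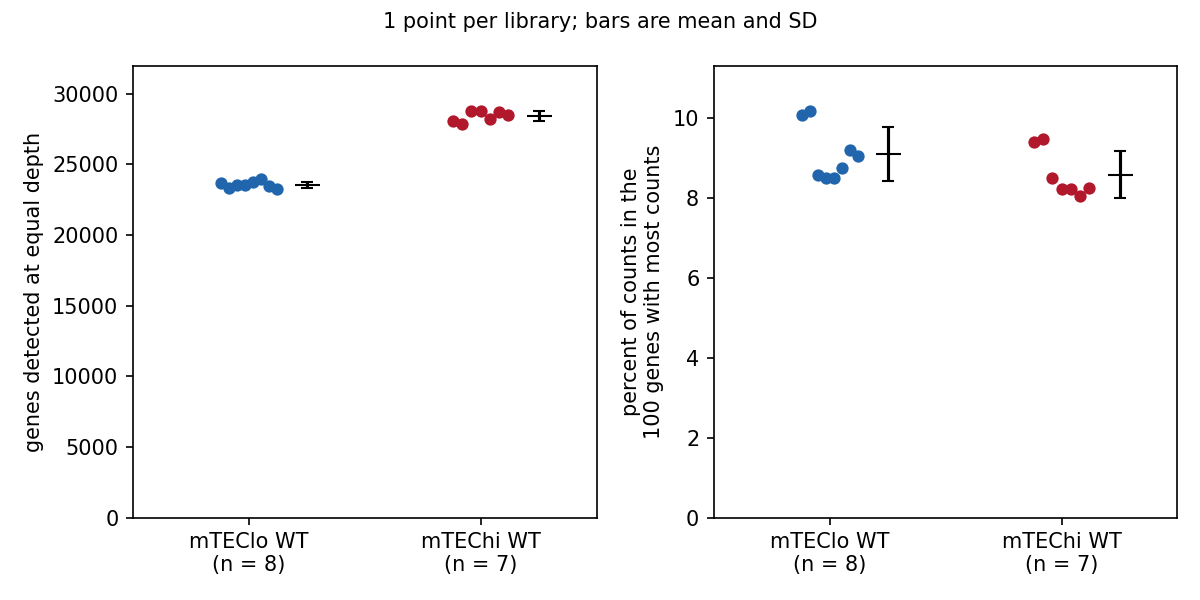
Genes detected after reduction to equal depth (left) and the percent of counts in the 100 genes with most counts (right), 1 point per library, with mean and SD beside the points. The mTEChi libraries lie between 27864 and 28748 genes and the mTEClo libraries between 23259 and 23951, while the ranges on the right overlap.

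MHC class II was the basis of the sort, so its transcripts are a description of the gate. H2-Aa, the class II α chain of the I-A molecule, had 275, 348 and 483 CPM (lowest, median and highest) in mTEClo and 546, 611 and 812 CPM in mTEChi, a log2 fold change of 0.86 (SE 0.14). H2-Eb1, a β chain of I-E, had 245, 301 and 446 CPM against 418, 491 and 698 CPM, and the log2 fold change was 0.72 (SE 0.14). H2-Ab1 and Cd74, the invariant chain that escorts class II, differed by 0.61 and 0.60 on that scale. These 4 main genes thus changed by less than 2-fold between gates of high and low surface protein. Larger differences were seen in genes that load or regulate class II. Ciita, its master transactivator, reached 1.004 (SE 0.15), H2-DMb1 and H2-DMb2, which help peptides exchange, 1.39 and 1.15, H2-Oa and H2-Ob, which restrain that exchange, 1.97 and 3.03, and Ctss, a protease that trims the invariant chain, 1.77. Ctsl, the protease that does this work in cortical epithelium, was lower by 1.78. Of 18 tested genes of the class II pathway 9 were called higher and 1 lower, against 23.7% and 12.4% of all genes. The RefSeq promoters of 2 class II genes are shown because their Y box, the site where NF-Y joins the factors that recruit CIITA, can be seen in them. The 250 bases before each start are printed 5′ to 3′ on the strand of the gene, build GRCm38.p6, with the letters CTGATTGG in capitals.
H2-Aa, chr17:34287824-34288073, minus strand: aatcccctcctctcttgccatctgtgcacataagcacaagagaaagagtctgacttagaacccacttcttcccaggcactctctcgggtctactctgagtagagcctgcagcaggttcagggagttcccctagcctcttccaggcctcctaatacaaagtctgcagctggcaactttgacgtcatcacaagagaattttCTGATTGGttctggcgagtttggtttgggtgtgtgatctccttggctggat
H2-Eb1, chr17:34305617-34305866, plus strand: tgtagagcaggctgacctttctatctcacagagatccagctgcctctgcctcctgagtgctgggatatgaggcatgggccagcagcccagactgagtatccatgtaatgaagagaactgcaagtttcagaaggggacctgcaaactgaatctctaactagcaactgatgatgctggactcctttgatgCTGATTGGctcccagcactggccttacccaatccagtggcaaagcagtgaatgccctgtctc
The match begins 51 bases before the start of H2-Aa and 62 bases before that of H2-Eb1. On either strand, CTGATTGG was found in 4.07% of all 27025 RefSeq promoters in windows of the same length.

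Aire and Fezf2, which mark mature mTECs, rose. Aire (ENSMUSG00000000731, chromosome 10) had 19.6, 76.7 and 128 CPM (lowest, median and highest) in mTEClo and 753, 822 and 921 CPM in mTEChi, with no overlap. Its log2 fold change was 3.58 (SE 0.26, edgeR adjusted p 6.65e-13). Fezf2, a transcription factor that induces antigens apart from those of Aire, had 87.3, 130 and 143 CPM against 236, 275 and 302 CPM, a log2 fold change of 1.17 (SE 0.09). Of 22 genes for Aire, Fezf2 and proteins reported to work with Aire, 6 (27.3%) were called higher and 2 (9.09%) lower, near the share of all genes, with a median log2 fold change of -0.17. Sirt1, a deacetylase, rose by 2.93 and Irf8 and Irf4, factors of immune cells, by 1.82 and 2.21, whereas Xrcc5, a DNA repair subunit, fell by 1.52 and Ets1 by 1.24. Top1 and Prkdc, which act at DNA breaks and transcribed chromatin, had log2 fold changes of -0.49 and -0.17 and were not called. Foxn1, the factor that defines thymic epithelium, had 53.2, 83.6 and 109 CPM in mTEClo and 165, 218 and 249 CPM in mTEChi (log2 fold change 1.38, SE 0.16).

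Genes of costimulation rose, 8 of 13 tested (61.5%, against 23.7% of all genes) and none lower, with a median log2 fold change of 2.22. Cd80, a ligand of CD28, had 14.1, 19.5 and 28.1 CPM in mTEClo and 185, 200 and 217 CPM in mTEChi, and its log2 fold change was 3.36 (SE 0.15, edgeR adjusted p 1.71e-17). Cd86, its partner ligand, went from 1.01, 1.39 and 2.44 CPM to 35.7, 52.8 and 61.0 CPM, a log2 fold change of 4.96 (SE 0.19). Neither gene overlapped between the fractions. Cd40, through which T cells signal to mTECs, was higher by 2.22, the ICOS ligand Icosl by 2.31, and the TNF family ligands Tnfsf9, Tnfsf4 and Cd70 by 3.53, 2.67 and 3.86. Cd274, the coinhibitor PD-L1, was 142, 151 and 188 CPM in mTEClo and 203, 219 and 269 CPM in mTEChi, a separate range but under 2-fold (0.54, SE 0.09).

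Of 20 tested genes of RANK, CD40 and lymphotoxin receptor signalling, 5 (25.0%) were called higher and 2 (10.0%) lower, near the 23.7% and 12.4% of all genes. Tnfrsf11a, which encodes RANK, had 291, 349 and 384 CPM in mTEClo and 499, 536 and 576 CPM in mTEChi (log2 fold change 0.64, SE 0.13). Tnfrsf11b, the decoy receptor osteoprotegerin that neutralises RANK ligand, rose by 2.00 (SE 0.12), from 46.2 to 80.1 CPM up to 217 to 310 CPM. Traf6 and the NF-κB subunit Rel rose by 1.22 and 1.80, while Relb and Nfkb2, the subunits of the noncanonical pathway, differed by 0.82 and 0.71, under the 2-fold limit. Ltbr, the lymphotoxin β receptor, fell by 1.16 (SE 0.11) and Tnfaip3, a brake on NF-κB, by 1.07.

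Chemokines moved in both directions, 10 of 21 tested higher (47.6%) and 3 lower (14.3%), against 23.7% and 12.4% of all genes. Ccl22 and Ccl17, which attract CCR4-bearing thymocytes, had medians of 124 and 8.07 CPM in mTEChi and 1.94 and 0.455 CPM in mTEClo, without overlap. Ccl25, a ligand of CCR9, rose by 1.96 (SE 0.09), from 41.7 to 63.2 CPM up to 178 to 258 CPM. Xcl1, an Aire-linked chemokine that draws dendritic cells, had a median of 6.90 CPM in mTEChi and of 0 CPM in mTEClo, where its highest library had 0.3 CPM. Ccl21a, which brings positively selected thymocytes into the medulla, had 23.7, 28.1 and 40.8 CPM in mTEClo and 4.64, 8.39 and 9.91 CPM in mTEChi (log2 fold change -1.88, SE 0.19). Cxcl12 and Cxcl14 fell by 2.10 and 2.69. Ccl21a, Ccl21b and Ccl21c are near-identical copies, so that reads of Ccl21a are uncertain under the authors' mapping filter.

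**Figure D3:**
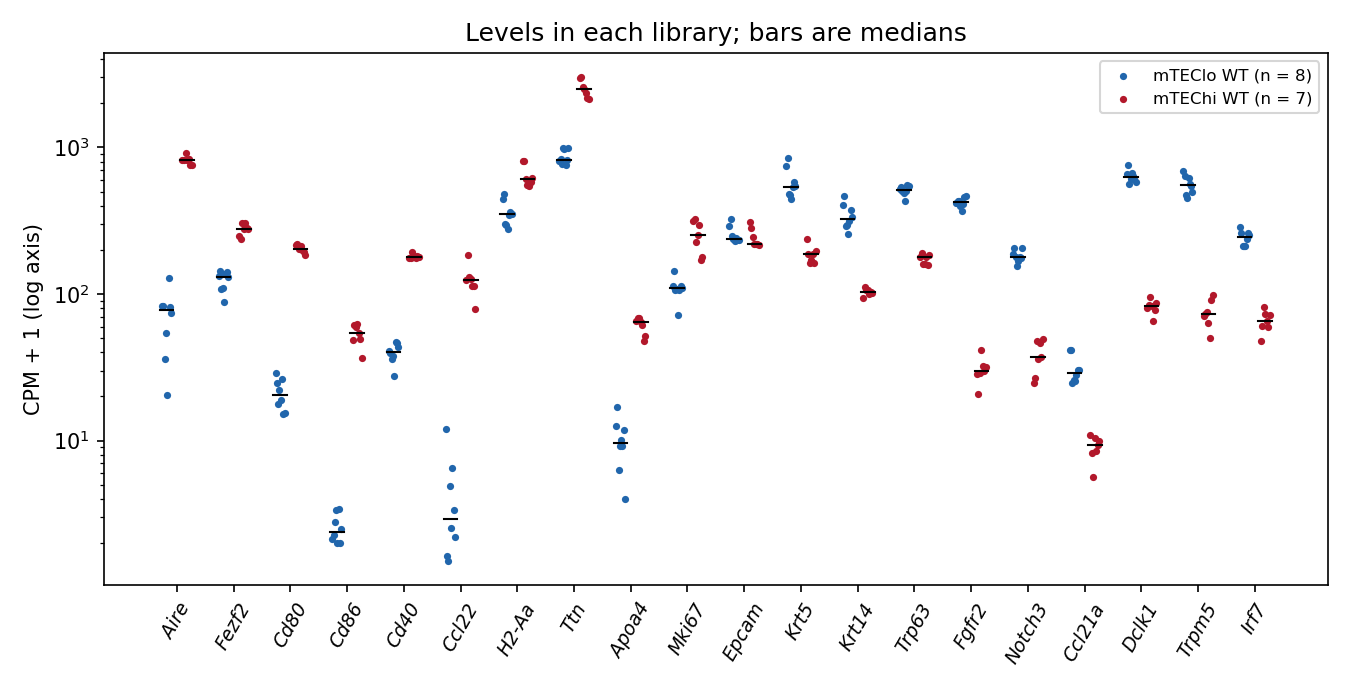
CPM + 1 on a log axis of 20 genes in each mTEClo (blue, n = 8) and mTEChi (red, n = 7) library, with bars at the medians. The fractions lie apart for each gene shown except Epcam, whose medians are 238 CPM in mTEClo and 219 CPM in mTEChi.

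Genes of basal and progenitor mTECs were lower in mTEChi, 11 of 21 tested (52.4%, against 12.4% of all genes), and 1 was higher. Krt5, a keratin of basal epithelium, had 446, 540 and 850 CPM in mTEClo and 161, 185 and 235 CPM in mTEChi, a log2 fold change of -1.65 (SE 0.14). Krt14, its pairing partner, had 254, 323 and 464 CPM against 93.5, 103 and 110 CPM (-1.73, SE 0.11). Trp63, the factor that maintains epithelial stem cells, had 427, 510 and 551 CPM against 157, 177 and 189 CPM (-1.56, SE 0.09). No mTEChi library reached the lowest mTEClo library for any of the 3 genes. Igfbp4, Igfbp5 and Pdpn fell by 3.13, 2.01 and 2.20. Col17a1, a collagen of the basal cell's anchor to its matrix, went the other way, by 1.42.

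Receptors of growth factors and cytokines were among the genes with the lowest p-values. Fgfr2, the receptor of the growth factors FGF7 and FGF10 on which thymic epithelium depends, had 370, 421 and 468 CPM in mTEClo and 19.8, 28.7 and 40.8 CPM in mTEChi. Its change of -3.81 on the log2 scale (SE 0.10, edgeR adjusted p 4.36e-22) was among the 5 smallest p-values of all falling genes. Lifr and Il6st, the subunits of the receptor for leukaemia inhibitory factor, fell by 3.56 and 2.35, Lifr from 1296 to 1799 CPM down to 103 to 166 CPM. Of 33 tested genes of the Wnt, BMP and FGF pathways 16 (48.5%) were lower and 5 (15.2%) higher, against 12.4% and 23.7% of all genes. Id1, a target of BMP signals, fell by 3.56, Fst, which binds activin, by 3.98 and Wnt4 by 1.31, whereas Wnt7a rose by 4.28 and Wnt10b by 2.48. Of 17 tested genes of the Notch pathway 9 (52.9%) were lower and 4 (23.5%) higher. Notch3 had 154, 178 and 207 CPM in mTEClo and 23.5, 36.5 and 48.2 CPM in mTEChi (-2.24, SE 0.12). The target genes Hes1, Hey1 and Hey2 fell by 1.99, 2.81 and 3.19 and the ligands Jag1 and Jag2 by 1.23 and 2.82, whereas the ligand Dll4 rose by 2.63. Of 24 tested genes of the extracellular matrix and its receptors 7 (29.2%) were lower, 5 (20.8%) higher and 12 not called (median -0.21). The laminin chains Lama3, Lamb1, Lamb3 and Lamc1 and the basement membrane collagens Col4a1 and Col4a2 fell by 1.94, 2.76, 2.57, 1.66, 1.55 and 1.74, while Fn1, Nid1 and Col1a1 rose by 1.46, 3.97 and 4.57.

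Mimetic cell genes split by cell type. Of 18 tested tuft cell genes 17 (94.4%, against 12.4% of all genes) were lower in mTEChi and none higher, with a median log2 fold change of -2.92. Dclk1, a kinase that marks tuft cells, had 564, 623 and 757 CPM in mTEClo and 64.8, 82.2 and 94.2 CPM in mTEChi (-2.97, SE 0.11). Trpm5, the channel of taste transduction, had 453, 555 and 688 CPM against 49.5, 72.0 and 98.2 CPM (-2.92, SE 0.14). Avil, Gnat3 and Alox5ap fell by 2.60, 3.94 and 3.13 and Pou2f3, the factor on which tuft cells depend, by 1.35. The genes of enterocytes and hepatocytes went the other way, 20 of 23 tested higher (87.0%, against 23.7% of all genes) and none lower (median 2.45). Hnf4g, a factor of gut epithelium, had 15.3, 17.8 and 34.9 CPM in mTEClo and 61.0, 72.5 and 86.1 CPM in mTEChi (1.81, SE 0.15). Its relative Hnf4a had 3.05, 6.73 and 11.5 CPM against 8.39, 16.1 and 19.6 CPM (1.06, SE 0.26), ranges that overlapped. Apoa4 rose from 3.00 to 15.9 CPM up to 47.1 to 67.5 CPM, and Alb, the main protein of plasma, had a median of 20.01 CPM in mTEChi and 0 CPM in mTEClo.

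Each of the other mimetic lists held genes called in either direction. Over all genes 23.7% were called higher and 12.4% lower. Of 18 tested muscle genes 10 were higher and 3 lower. Ttn, the giant protein of the sarcomere, had 761, 823 and 992 CPM in mTEClo and 2124, 2499 and 3011 CPM in mTEChi (1.54, SE 0.15), and Myh3, an embryonic myosin, rose by 5.58. Myog, the factor of muscle differentiation, fell by 1.12 (SE 0.25), from 20.1 to 42.7 CPM down to 7.85 to 18.3 CPM, and Acta1 and Myl1, contractile proteins, by 1.73 and 1.67. Of 23 tested endocrine genes 9 were higher and 4 lower. The factor Insm1 rose by 2.20 (SE 0.14) with Nts, Gal and Gip, peptide hormones, by 6.52, 5.16 and 5.26, while Chgb and Snap25, of secretory granules, fell by 1.57 and 1.77. Of 18 tested goblet and mucin genes 9 were higher and 1 lower. Muc2 and Muc5ac rose by 3.02 and 2.09, and Muc5b fell by 2.04, with 16.8, 110 and 630 CPM in mTEClo and 35.6, 49.8 and 92.4 CPM in mTEChi. Of 20 tested ciliated cell genes 6 were higher and 2 lower, and Foxj1, the factor of motile cilia, had 27.8, 34.0 and 38.2 CPM in mTEClo and 12.4, 37.8 and 78.2 CPM in mTEChi. Of 23 tested keratinocyte genes 5 were higher and 2 lower, of 13 microfold genes 3 and 1, and of 11 ionocyte genes 5 and 2. The ciliated shares (30.0% and 10.0%), the keratinocyte shares (21.7% and 8.70%) and the microfold shares (23.1% and 7.69%) were near those of all genes (23.7% and 12.4%). Gp2, a receptor of mature microfold cells, fell by 1.11 (SE 0.19), from 152 to 262 CPM down to 65.5 to 146 CPM.

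**Figure D4:**
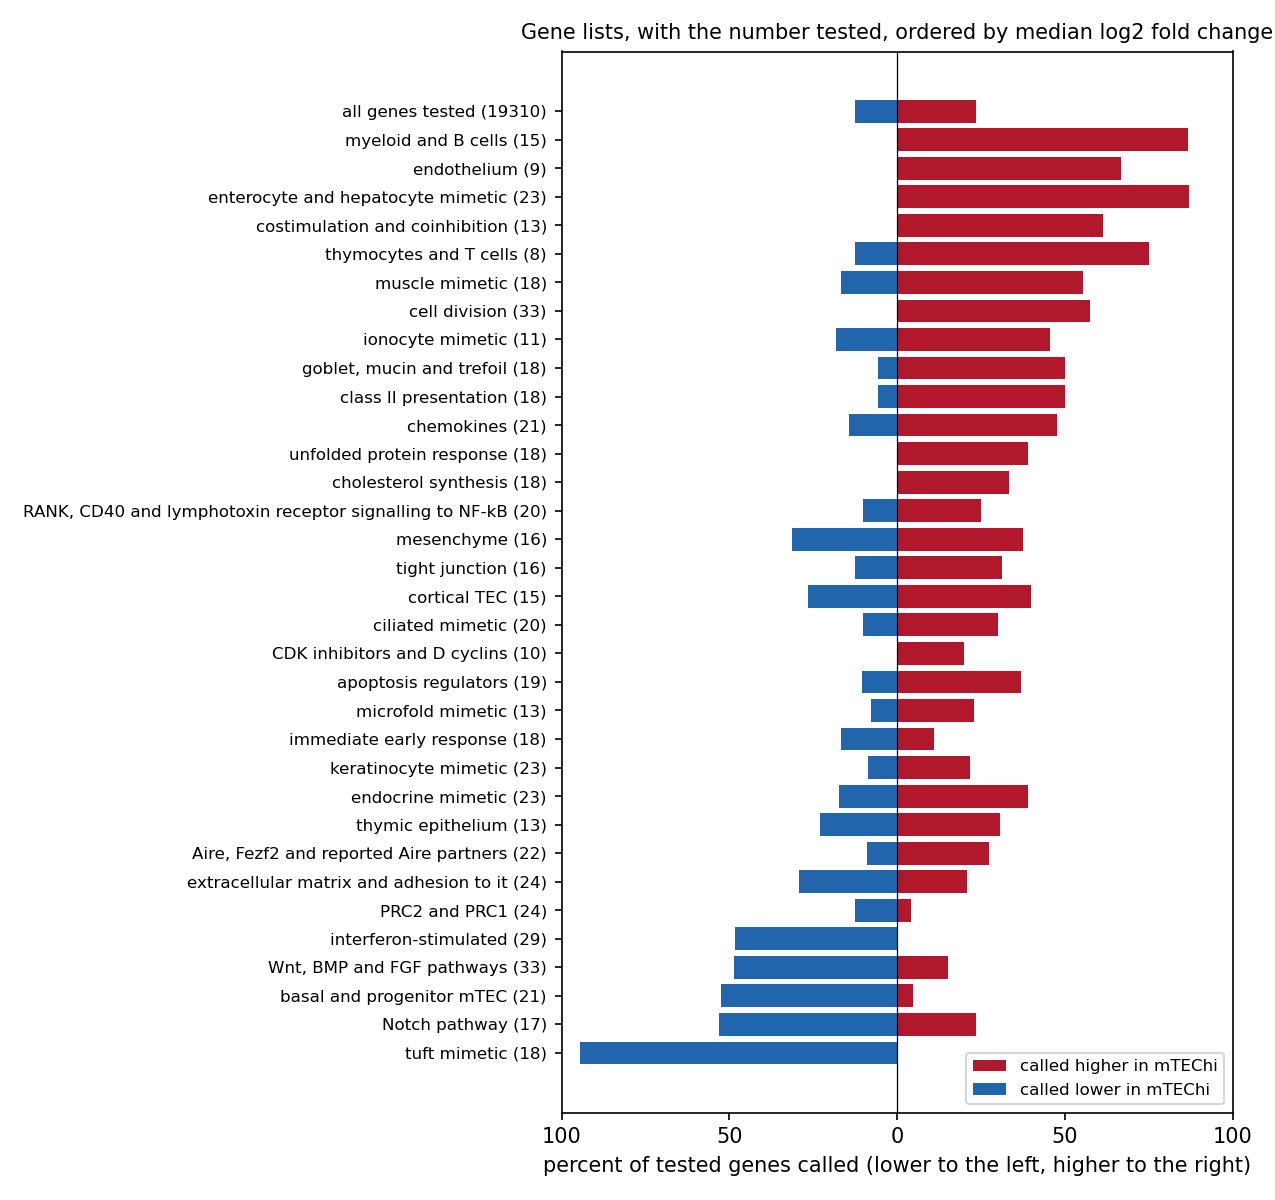
Percent of the tested genes of each list that were called lower (blue, to the left) or higher (red, to the right) in mTEChi, ordered by median log2 fold change, with all genes tested at the top and the number tested in brackets. Tuft cell genes stand at the bottom with 17 of 18 lower, and 20 of 23 enterocyte and hepatocyte genes and 13 of 15 myeloid and B cell genes were higher.

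Genes of mitosis were higher in mTEChi, and none of the 6 tested Mcm genes of DNA replication was called. Of 33 tested genes of cell division 19 (57.6%, against 23.7% of all genes) were called higher and none lower (median log2 fold change 1.18). Mki67, present in all phases of the cycle, had 71.3, 108 and 143 CPM in mTEClo and 169, 253 and 322 CPM in mTEChi (1.22, SE 0.29). Top2a, which untangles chromosomes, had 37.9, 56.4 and 69.3 CPM against 125, 194 and 265 CPM (1.84, SE 0.29). Cdk1, Ccnb1, Bub1 and Aurkb, which carry cells through mitosis, rose by 1.84, 1.80, 2.12 and 1.81. The Mcm genes encode subunits of the helicase that opens DNA, and their log2 fold changes ran from -0.68 (Mcm7) over 0.05 (Mcm4) and 0.16 (Mcm5) to 0.33 (Mcm3). Among the cell cycle inhibitors Cdkn2b and Cdkn2c rose by 1.13 and 1.21, and Cdkn2a had 3.15, 4.02 and 10.3 CPM in mTEClo and 3.72, 8.21 and 10.0 CPM in mTEChi (0.66, SE 0.25). Among survival genes, Bcl2 fell from 111 to 137 CPM (median 125) down to at most 52.5 CPM (median 45.8) (-1.50, SE 0.08) and Bcl2l1, which encodes BCL-XL, rose from 52.0 to 64.4 CPM up to 135 to 182 CPM (1.55, SE 0.12). The proapoptotic Pmaip1 and Bbc3 and the death receptor Fas rose by 1.70, 1.07 and 1.60, but Bbc3 was at -0.21 in the 4-week libraries alone.

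Of 29 tested interferon-stimulated genes 14 (48.3%, against 12.4% of all genes) were lower in mTEChi and none higher, with a median log2 fold change of -0.96. Irf7, the factor that amplifies the response, had 211, 244 and 286 CPM in mTEClo and 47.1, 64.2 and 80.7 CPM in mTEChi (-1.88, SE 0.10). Ddx58, the RNA sensor RIG-I, had 316, 344 and 362 CPM against 56.1, 61.9 and 65.7 CPM (-2.49, SE 0.06, edgeR adjusted p 3.84e-22), the smallest p of all falling genes. Isg15, Ifit3, Oas2 and Ifi44, effectors of antiviral defence, fell by 1.77, 2.58, 3.42 and 2.76. Of 18 tested genes of the unfolded protein response 7 (38.9%, against 23.7% of all genes) were higher and none lower, among them the chaperone Hspa5 by 1.20 (SE 0.12), from 207 to 335 CPM up to 507 to 755 CPM. Of 18 tested genes of cholesterol synthesis 6 (33.3%) were higher and none lower, among them Hmgcs1, Idi1 and Mvd by 1.09, 1.58 and 2.10. Of 18 tested immediate early genes 2 (11.1%) were higher, 3 (16.7%) lower and 13 not called (median 0.03). Over all genes 23.7% were higher and 12.4% lower. Of the immediate early genes Jun and Fos fell by 1.53 and 1.01. Jun had 133, 151 and 219 CPM in mTEClo and 22.8, 60.7 and 73.5 CPM in mTEChi.

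PRC2, which the study deleted in other mice, places the repressive mark on histone H3 lysine 27, and PRC1 reads it. Ezh2, its catalytic subunit, had 43.0, 50.4 and 55.2 CPM in mTEClo and 53.2, 62.5 and 72.5 CPM in mTEChi (log2 fold change 0.36, SE 0.08). Ezh1, the alternative subunit, had 133, 138 and 149 CPM against 81.8, 90.0 and 95.5 CPM (-0.65, SE 0.06), with no overlap. Eed had 27.6, 36.4 and 39.8 CPM in mTEClo and 23.9, 37.8 and 44.4 CPM in mTEChi (-0.02, SE 0.12). Of 24 tested PRC2 and PRC1 genes Aebp2, an accessory subunit of PRC2, was called higher by 1.55 (SE 0.07), and 3 genes of PRC1, Pcgf2, Cbx2 and Cbx6, were called lower by 1.42, 1.44 and 1.71. The share called higher was 4.17% (23.7% of all genes), and the share called lower, 12.5%, was near the 12.4% of all genes.

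The genes with the largest changes belonged to many tissues. By the rule of the largest change without overlap, at least 10 CPM where higher and on average more than 3 counts where lower, Col6a3, a collagen chain, led the rises with 90.6, 95.5 and 137 CPM in mTEChi and 0, 0.618 and 2.75 CPM in mTEClo (6.54, SE 0.27). Lrrc15, Spp1, Pgc, Epb42, Robo3, Krt13, Myh3, Ly6g and Ces1f followed, with log2 fold changes from 5.50 to 6.00. Pgc is a digestive enzyme of the stomach, Epb42 a protein of the red cell membrane, Robo3 a guidance receptor of axons, Krt13 a keratin of the mouth and oesophagus, and Ces1f a liver esterase. Sult5a1 led the falls with 55.0, 65.1 and 71.9 CPM in mTEClo and 0.6, 1.43 and 3.60 CPM in mTEChi (-4.93, SE 0.21). Boc and Gas1, coreceptors of Hedgehog ligands, fell by 4.89 and 4.76, Boc from 331, 392 and 444 CPM to 4.20, 10.97 and 21.4 CPM. Rgs21, Adam28, Slitrk4, Dcx, Gpr139, Irak3 and Vwa1 completed the list, between -4.29 and -4.07. Among abundant genes, Hdc, which makes histamine, rose by 3.78 (SE 0.21), from 28.3 to 69.9 CPM up to 551 to 765 CPM. Dennd4a and Slco5a1 rose by 2.62 and 2.52, and Dst and Flna, linkers of the cytoskeleton, fell by 1.63 and 2.21. The smallest p-values were those of Marc1 among the rises (4.42, SE 0.09, edgeR adjusted p 4.78e-24) and Ddx58 among the falls.

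Of 1134 olfactory receptor genes 919 had a count in any mTEChi library and 312 in any mTEClo library. Of 322 vomeronasal receptor genes 225 and 85 did, and of 22 major urinary protein genes 16 and 3. For all 53402 genes the numbers were 40719 and 33990. Few of these receptors passed the filter on low counts, 35 olfactory and 7 vomeronasal ones. Of these, 26 and 7 were called higher, against 23.7% of all genes tested. A member could pass the filter through mTEChi alone, so these counts support nothing by themselves. The same holds for the tested members of other families, of which 24 of 45 tested keratins were higher and 5 lower, 19 of 24 kallikreins and none, 26 of 46 cytochrome P450 genes and 5, 20 of 44 collagens and 8, 30 of 43 GABA, glycine and glutamate receptor genes and 3, and 11 of 13 tested Hox genes and 2. Among all genes tested, 23.7% were higher and 12.4% lower. The filter left 46 of 100 cytochrome P450 genes and 13 of 39 Hox genes. Grin2c, an NMDA receptor subunit, rose by 3.86 and Grm7, a metabotropic receptor, by 4.41. In the collagens, Col6a1 fell by 3.32 and Col6a2 had a log2 fold change of -3.83, while Col6a3, with which they assemble, rose by 6.54. Hoxa2 and Hoxa3, the anterior members that pattern the pharyngeal pouches, were the 2 Hox genes called lower, by 3.31 and 3.12.

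In a few families more tested members were lower than higher, against 12.4% lower and 23.7% higher of all genes. A member could pass the filter through mTEClo alone, so these counts, too, support nothing by themselves. All 28 tested taste receptor genes of 38 were lower, 7.15 to 1.21 below 0 on the log2 scale. Tas2r105, a bitter receptor, had 22.4, 30.1 and 37.2 CPM in mTEClo and at most 1.50 CPM in mTEChi, with a median of 0. Of 45 tested protocadherins 34 were lower and 5 higher, and of 314 tested zinc finger genes named Zfp 60 were lower and 11 higher. Housekeeping families changed little. Of 74 tested cytosolic ribosomal protein genes 1 was lower and none higher, of 38 proteasome genes 1 was higher, and of 36 nuclear genes of respiratory complex I 1 was higher, with medians of 0.08, 0.22 and 0.20.

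Called genes had neighbours of their own direction. In chromosomal order of tested protein-coding genes, the next gene was called higher after 35.6% of genes called higher, 17.3% of genes called lower and 20.2% of genes not called, against 23.6% of all. The next gene was called lower after 21.1% of genes called lower, against 10.6% of all. The longest unbroken run was a fall of 23 genes on chromosome 6, from Ybx3 to Tas2r140 (131364855 to 133055816, GRCm38), most of them Tas2r bitter receptors. Falls also ran over 17 Pcdhg genes and 14 Pcdhb genes of the protocadherin clusters on chromosome 18. The longest rises were 15 kallikrein genes on chromosome 7, Klk6 to Klk1b5 (43824499 to 44220703), and 13 genes on chromosome 5, Ugt2b1 to Jchain (86916638 to 88527891), which hold the caseins. Csn2, the casein β gene, had 34.8, 55.3 and 82.7 CPM in mTEClo and 308, 366 and 565 CPM in mTEChi (2.87, SE 0.17). These runs were picked after their values were seen. Pcdhg genes share exons, Klk1b and Tas2r genes are close copies, and counting ignored strand, so that reads of single members are uncertain.

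The promoters and types of called genes differed from the rest. A RefSeq promoter, 250 bases before to 50 after the start (GRCm38.p6), was matched by symbol for 67.9% of tested genes. This is under the 80% at which such a check is held to be sound, so only the protein-coding values with 75.5% of genes called higher, 74.4% of those called lower and 79.7% of those not called are given, as a description of the matched genes. Median CpG content, observed over expected, was 0.387 for genes called higher, 0.658 for genes called lower and 0.779 for genes not called. For all RefSeq promoters it was 0.3885, near that of the genes called higher. Median GC content was 55.7%, 61.3% and 61.0% in the 3 classes and 52.67% for all RefSeq promoters. In the lowest of 4 equal groups by CpG 49.2% of genes were higher and 11.3% lower, and in the highest 9.37% and 7.01%. Levels moved along, with a median of 11.6 CPM in the lowest and 47.7 CPM in the highest group, and their part in this pattern was not tested. The letters TATAAA were found on either strand in 14.7%, 7.57% and 6.77% of the promoters of the 3 classes and in 14.2% of all RefSeq promoters. CCAAT was found in 37.8%, 34.1% and 38.7% (37.9% of all) and CTGATTGG, which contains CCAAT on its other strand, in 5.72%, 3.17% and 5.77% (4.32% of all). By gene type, 49.0% of 573 tested lincRNAs were higher and 15.2% lower, against 23.6% and 10.6% of 15628 protein-coding genes. Genes not assigned to coding took 5.12% to 5.41% of counts in mTEChi and 4.59% to 5.10% in mTEClo, ranges without overlap (p = 0.000311, exact permutation test).

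**Figure D5:**
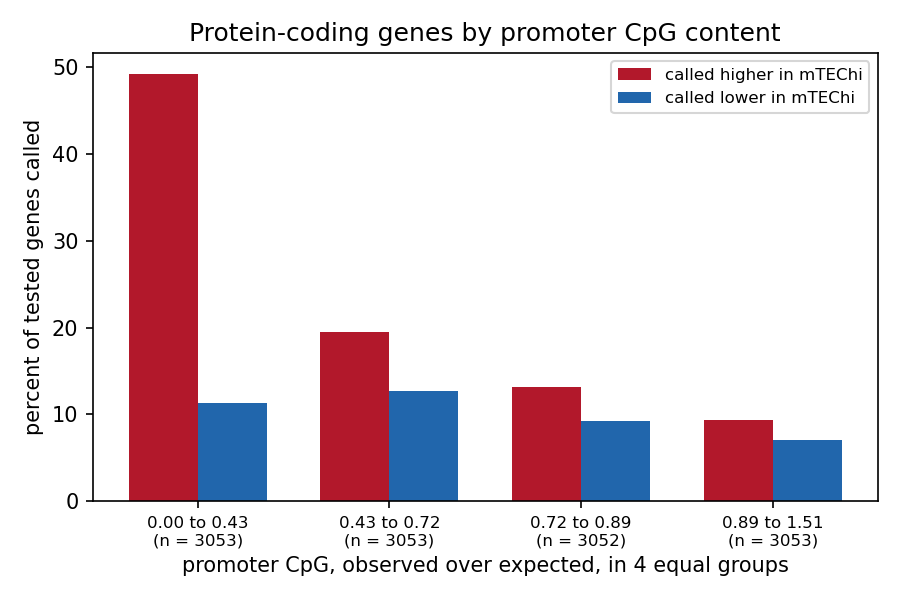
Percent of matched, tested protein-coding genes called higher (red) or lower (blue) in mTEChi, in 4 equal groups by CpG content of the promoter (observed over expected). The share called higher goes from 49.2% in the lowest group to 9.37% in the highest, and the share called lower from 11.3% to 7.01%.

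Among marker genes of cells outside the gate, most tested ones of myeloid and B cells, thymocytes and endothelium were also higher in mTEChi. Those of mesenchyme went both ways. Over all genes 23.7% were called higher and 12.4% lower. Of 15 tested myeloid and B cell genes 13 were higher and none lower, with a summed level of 398 to 477 CPM in mTEChi and 88.2 to 123 CPM in mTEClo. Of 8 tested thymocyte genes 6 were higher and 1 lower, with sums of 210 to 244 CPM and 44.7 to 61.1 CPM, and Cd3e, Cd3d, Rag2, Ptcra, Trbc1 and Cd2 of that list did not pass the filter. Of 9 tested endothelial genes 6 were higher and none lower (132 to 171 CPM against 71.2 to 100 CPM), and Kdr, Emcn and Cldn5 did not pass. Of 16 tested mesenchymal genes 6 were higher and 5 lower, with sums of 730 to 939 CPM in mTEChi and 1175 to 1582 CPM in mTEClo. Cd4 had 22.9 to 29.4 CPM in mTEChi and 0.509 to 4.03 CPM in mTEClo. No gene of these lists was at 0 counts in all WT libraries. mTECs themselves transcribe genes of many tissues, and the part of other cells in the results was not tested.

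Age and sex were examined within the WT libraries. The difference between the fractions was itself different at 5 and 4 weeks for 4 of 20042 genes (0.02%), at an adjusted p under 0.05 and 2-fold in edgeR, all lower at 5 weeks. They were S100a8, S100a9, Ngp and Camp, which encode granule and cytosol proteins of neutrophils, and their fold changes were 3.36, 3.24, 6.68 and 5.11 lower on the log2 scale at 5 weeks. S100a8 had 2.295 to 6.995 CPM in the 5 mTEClo libraries of 4 weeks, 16.2, 36.6 and 45.0 CPM in those of 5 weeks, and 66.9 to 115 CPM in mTEChi. Ngp had 0 to 1.72 CPM in the 4-week mTEClo libraries, 7.93, 40.0 and 60.3 CPM in the 5-week ones and 17.4 to 35.7 CPM in mTEChi. The 5-week mTEClo libraries thus stood apart from the 4-week ones in all 4 genes. Without the 2 mTEClo libraries that went against their sex label, 23 genes passed. Aire had log2 fold changes of 4.01 at 4 weeks and 3.10 at 5 weeks, a difference of -0.91 (SE 0.36, edgeR adjusted p 0.35), and Cd80 3.39 and 3.45. Between the sexes as labelled, 0 of 20042 genes (0%) passed in edgeR, with 1247 (6.22%) at an unadjusted p under 0.05, and 0 passed without those 2 libraries. A fit of only the WT libraries called 5534 genes and kept 74.9% of the rising and 85.4% of the falling genes. With sex and age as terms in that fit, 5630 genes were called, and 73.7% and 84.1% were kept. Male WT libraries alone called 90.4% of the rising and 84.7% of the falling genes again, and 5-week libraries alone kept 92.0% and 85.0%. None turned in any of these fits. Libraries of 4 weeks alone, where mTEChi has 2 shallow libraries, kept 60.9% and 76.9%, again with none turned.

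Without Aire the difference between the fractions was not the same. In the fit of all 23 adult libraries, the WT fold change differed from the AireKO fold change for 2642 of 19310 genes (13.7%), at an adjusted p under 0.05 and 2-fold in edgeR, 2121 of them with a larger value in WT and 521 with a smaller one. Mitochondrial genes had 7385 to 10339 counts in each WT library but 0 in each AireKO library of mTEChi and in replicates 3 and 4 of mTEClo AireKO. In mTEChi the genotype and this kind of library therefore cannot be told apart. Without mTEClo AireKO replicates 1 and 2, 3042 genes passed. By the rule of smallest p, Fbln2, Nrxn3 and Sparc had larger values in WT. Sparc, a matrix glycoprotein, had a log2 fold change of -0.47 in WT and -5.62 in AireKO, Nrxn3 of 1.67 and -4.23, and Fbln2 of 1.25 and -7.27. Cxcl16, Lrp1b and Ptpn14 had smaller values in WT, -0.41, -0.41 and -0.97 against 0.98, 2.60 and 0.45. Side by side, Cd80 had 3.36 in WT and 2.43 in AireKO, a difference of 0.93 (edgeR adjusted p 0.00805) that was 0.35 without mTEClo AireKO replicates 1 and 2 (edgeR adjusted p 0.265). Cd86 had 4.96 and 5.02, Fezf2 1.17 and 1.18, Krt14 -1.73 and -2.15, Fgfr2 -3.81 and -4.16, Trpm5 -2.92 and -3.32 and Irf7 -1.88 and -1.98, and none of these 6 differences passed the test (edgeR adjusted p from 0.106 to 0.98). Dclk1 had -2.97 and -4.18, a difference of 1.21 that passed. Col6a3 and Myh3 had 6.54 and 5.58 in WT and -2.34 and -0.55 in AireKO, and both differences passed. Tuft genes were called lower for 17 of 18 in either genotype, while muscle genes were called higher for 10 of 18 in WT and 1 of 18 in AireKO. The AireKO counts were made only with mTEClo AireKO replicates 1 and 2 included. Without these replicates the AireKO log2 fold change of Ttn was 1.50, against 0.77 with them. That of Myh3 was then -0.27 and that of Myog -2.11. Of all 19306 genes, with 1 identifier per symbol, 3581 were called higher and 3219 lower in AireKO. In WT 4573 and 2391 of 19310 were. The cause of the difference in muscle genes was not tested.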

How the data were processed

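Values were whole read counts per Ensembl gene, deposited by the authors without normalization. Per the study's methods, the authors trimmed reads with fastp 0.20.0, mapped them to mm10 with STAR 2.7.3a, removed low mapping qualities (SAMtools 1.9) and duplicates (Picard 2.21.1), and counted with HTSeq 0.11.2 regardless of strand. Removing duplicates without molecular identifiers flattens abundant genes. The annotation release is not given in the sources used here, and authors' normalized values were not used.

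Gene symbols and positions came from GENCODE M21 (GRCm38), in which all 53402 identifiers were found. In R 4.3.3, genes passed edgeR 4.0.16 filterByExpr, libraries were TMM-scaled over tested genes, and a quasi-likelihood model of 4 groups over all 23 adult libraries was fitted (common dispersion 0.021), with Benjamini-Hochberg adjustment. Fold changes use a prior count of 0.125, and their SE is the absolute log2 fold change over the square root of F. Age and sex were tested in the 15 WT libraries. Single values per library had exact permutation tests. Where a symbol has several identifiers, that with most counts was used. On simulated counts for this comparison (19310 genes), 46% of 2-fold and 100% of 4-fold changes were called, and 1 of 19110 unchanged genes. A call needs an estimate of at least 2-fold, so the 2-fold value reflects that limit. The simulation changed 50 genes at each size, in independent libraries without AireKO groups. Its rates need not hold for these libraries.

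Named genes are list members, the 10 largest changes and the 10 most abundant called genes per direction, the 5 smallest p-values, for interactions the 3 smallest, and family members. Hoxa2, Hoxa3, Camp, Xist and Kdm5d and the runs were chosen after their values were seen. Comparison, lists and members were chosen with earlier results of these data known. Same-numbered libraries are not stated to come from 1 mouse. Age or sex differ for 6 of the 7 WT numbers and match for replicate 6 and the AireKO numbers.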

Additional observations from a re-analysis of the deposited data

Results flagged for a closer look

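The 404 groups of 7 or 8 libraries, for 195 of the named genes and the single values per library, were examined for 1 library far from the rest of its group by Dixon's ratio. It was exceeded in 25 groups, and chance alone gives about 1 in 20. In mTEClo replicate 1, which went against its sex label, the library far from the others had 56.29 CPM of Ctss, 25.27 CPM of Dll4, 3.446 CPM of Epb42, 7.467 CPM of Lrrc15, 6.318 CPM of Ly6g, 100.5 CPM of Muc2 and 14.36 CPM of Psmb11. In mTEClo replicate 2, Krt13 had 10.18 CPM. In other mTEClo libraries this held for Prss16 (48.19 CPM, replicate 3), Mcm4 (56.38 CPM, replicate 4), Hnf4g (34.87 CPM, replicate 5), Gip (1.831 CPM, replicate 6), Ifit3 (92.94 CPM, replicate 8) and Xcl1 (0.2998 CPM, replicate 8). In mTEChi it held for Fst (14.87 CPM, replicate 1), Muc5b (92.41 CPM), Tnfaip3 (122.4 CPM) and Tnfsf9 (22.8 CPM) in replicate 2, for Cd40 (192.4 CPM), Cdk1 (36.06 CPM) and Xcl1 (15.35 CPM) in replicate 3, for Tas2r105 (1.5 CPM) in replicate 5, for Epb42 (77.78 CPM) in replicate 6, and for Ces1f (39.63 CPM) and Col6a3 (137.4 CPM) in replicate 7.

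The difference between the fractions was itself different between genotypes for 2642 genes and between 5 and 4 weeks of age for 4 genes, each by an interaction term in edgeR. By age the log2 fold change differed by -6.677 for Ngp, -5.106 for Camp, -3.359 for S100a8 and -3.244 for S100a9. WT minus AireKO, it differed by 8.516 for Fbln2, 5.895 for Nrxn3, 5.153 for Sparc, -1.385 for Cxcl16, -3.004 for Lrp1b and -1.421 for Ptpn14.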

How the results depend on the processing

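Of 5634 alternative values of 195 of the named genes, 5544 kept their direction and their side of the adjusted p threshold. In 36 the adjusted p rose above that threshold, in 28 it fell below it, and 26 changed sign. The minimum fold change of a call was not part of this comparison, so calls lost or gained were not counted. The count of called genes was 13803 (10532 higher) with no filter on low counts, 13613 (7113 higher, 6500 lower) with no minimum change, 3500 (2809 and 691) at 4-fold, and 2985 higher at 4 weeks alone. With DESeq2 it was 6946. With a replicate block it was 6950, and 2470 for the Aire genotype difference. Nothing states that same-numbered libraries are paired. As labelled, age and sex match for only replicate 6 of the 7 WT numbers and for the AireKO numbers. WT replicates 1 and 2 would match too if the 2 mTEClo libraries against their sex label were male. The WT deviations correlated by -0.106 to 0.0748, with 1 of 7 closest to its own number. Leaving out 1 library gave 6772 to 7006 genes, 4392 to 4603 higher and 2348 to 2457 lower. The Aire genotype difference then ran from 2426 to 2709 genes, that by age from 4 to 6 (0 to 2 positive, 4 negative) and that by sex from 0 to 2 (0 to 2 positive, 0 to 1 negative). Genes smaller in WT than in AireKO numbered 301 with library size alone and 802 without mTEClo AireKO replicates 1 and 2. With no filter, 96 genes differed by age (63 positive, 33 negative) and 55 by sex (35 and 20), and without the 2 libraries against their sex label 23 by age (11 and 12).

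The difference in detected genes was 4785 to 4933 with 1 library left out, and 4753 (p = 0.0571, exact permutation test) with 1 value for each fraction, age and sex, where the number of values sets the limit. The share of the 100 most counted genes differed by -0.6625 to -0.364 percentage points with 1 library left out, and by -0.6847 over protein-coding genes, -0.7571 at 5 weeks, -0.5137 without the 4 shallowest libraries (p = 0.0357, 0.0357 and 0.00866, exact permutation tests) and 0.1245 in males. The cause of these shifts was not tested.

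The sign of some genes changed. Epcam was 0.01141 with RLE factors, 0.07529 with sex and age as terms, 0.06409 in males, 0.2166 at 4 weeks, 0.03479 without the libraries against their label and 0.0113 in DESeq2. Eed was 0.05078, 0.02387 with library size, 0.0133 in WT libraries only, 0.07177 with sex and age, 0.2239 at 4 weeks, 0.04976 in DESeq2, and -0.06668 to 0.05961 with 1 library left out. Mcm4 was -0.1481 in males and -0.01336 to 0.1134 with 1 left out. At 4 weeks Foxj1 was -0.6624, Mcm5 -0.05312, Bbc3 -0.2143, Cdkn2a -0.2615, Psmb11 -0.03046 and Kdm5d 0.09522, and at 5 weeks Kdm5d was 0.2384 and Ngp -0.5696. In all libraries these 6 genes and Ngp were at 0.56, 0.16, 1.07, 0.66, 0.48, -0.27 and 0.74. Depth limits what can be said of genes near 3 counts in a library.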
